A study of Homo sapiens with 2 samples.

Results

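The genes described here are 9 enzymes that make serine and pass its carbon through folate, taken by gene symbol from a list drawn up with earlier results of these arrays known. They are PHGDH, PSAT1 and PSPH of serine synthesis, SHMT2, MTHFD2, MTHFD1L and ALDH1L2 of the mitochondrial folate pathway, and SHMT1 and MTHFD1 of the cytosolic one. All 9 had a probe set that the platform annotation ties to a single gene, out of 18417 genes with such a probe set. The cells were U251, an established human glioblastoma line kept in high-glucose medium. One sample was given 5 µM G-TPP for 6 h and the other DMSO, the solvent, and each was put on 1 array. G-TPP is a Gamitrinib, an Hsp90 inhibitor linked to triphenylphosphonium, a cation that accumulates in mitochondria, and the series was made to ask how genes of mitochondria answer when mitochondrial Hsp90 chaperones are targeted. With 1 array per group no difference has a replicate check, so no error or p-value is given, and "higher" and "lower" describe these arrays. What limits the model is that it is 1 line, 1 dose and 1 time point, and that inhibition of the chaperones was not measured.

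Serine is made from 3-phosphoglycerate of glycolysis in a short chain: PHGDH oxidises it, PSAT1 transaminates the product and PSPH removes the phosphate. Serine hydroxymethyltransferases then move a carbon unit from serine to tetrahydrofolate and leave glycine, SHMT2 in mitochondria and SHMT1 in the cytosol. In mitochondria MTHFD2 oxidises the folate-bound unit, MTHFD1L releases it as formate, and ALDH1L2 burns it to carbon dioxide while making NADPH. Formate leaves for the cytosol, where the trifunctional enzyme MTHFD1 loads it back onto folate for purine and thymidylate synthesis. Several of these genes are textbook targets of ATF4, the transcription factor of the integrated stress response, which binds composite C/EBP-ATF response elements (CAREs).

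The promoter windows of MTHFD1L and MTHFD1 are shown because these are the mitochondrial and the cytosolic formate-tetrahydrofolate ligase genes and they differed in opposite directions, and that of ASNS, asparagine synthetase, because it carries a well-known CARE. The windows run 5′ to 3′ on the strand of the gene from 250 bases before to 50 bases after the transcription start, from RefSeq on GRCh38.p14. The capitals mark matches to the CARE letters TGATGNAA or to the E-box CACGTG, the letters bound by MYC with MAX. MTHFD1L lies on the + strand at chr6:150866236-150866535, MTHFD1 on the + strand at chr14:64388103-64388402 and ASNS on the - strand at chr7:97872359-97872658.
MTHFD1L: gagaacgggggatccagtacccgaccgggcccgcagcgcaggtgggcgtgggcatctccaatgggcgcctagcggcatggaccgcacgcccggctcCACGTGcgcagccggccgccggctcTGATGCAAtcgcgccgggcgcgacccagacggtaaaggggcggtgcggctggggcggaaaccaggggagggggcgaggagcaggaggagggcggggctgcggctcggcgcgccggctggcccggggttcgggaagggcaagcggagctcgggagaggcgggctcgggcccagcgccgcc
MTHFD1: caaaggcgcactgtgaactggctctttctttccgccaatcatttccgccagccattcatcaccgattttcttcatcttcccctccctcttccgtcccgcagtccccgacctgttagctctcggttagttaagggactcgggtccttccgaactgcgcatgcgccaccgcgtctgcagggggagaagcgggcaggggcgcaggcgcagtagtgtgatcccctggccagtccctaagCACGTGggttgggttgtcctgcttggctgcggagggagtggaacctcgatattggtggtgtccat
ASNS: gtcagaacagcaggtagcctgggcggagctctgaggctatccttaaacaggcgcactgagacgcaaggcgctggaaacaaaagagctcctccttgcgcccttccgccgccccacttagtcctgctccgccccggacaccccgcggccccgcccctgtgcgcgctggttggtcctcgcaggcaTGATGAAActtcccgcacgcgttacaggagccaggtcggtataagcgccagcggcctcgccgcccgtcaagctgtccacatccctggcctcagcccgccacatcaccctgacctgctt

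In the MTHFD1L window the CARE match TGATGCAA begins 129 bases before the start and an E-box 154 bases before it. In the MTHFD1 window an E-box begins 15 bases before the start and there is no CARE match. The ASNS match TGATGAAA begins 68 bases before the start. The windows of CTH, SLC6A9 and MAT2A, genes described below, were also scanned and held no CARE match. Of these, CTH and SLC6A9 were higher with G-TPP and MAT2A was lower. Among the 6 members with a window in the RefSeq table (PHGDH, PSAT1, MTHFD2, MTHFD1L, SHMT1 and MTHFD1), MTHFD1L was the 1 with a CARE match, and 2 held an E-box. For MTHFD1L, which has more than 1 window, the first listed was used. RefSeq places the start of the MTHFD1L gene at chr6:150865702, before this whole window. Its CARE match and E-box thus lie before the start that the window uses, but inside the gene. Of all 27305 windows of this length, 1 per gene symbol, 3.67% held the CARE letters on either strand and 7.43% the E-box. The core of the antioxidant response element, TGACNNNGC, was in 13.6% of all windows and in 1 member window, that of MTHFD2. These are matches of letters and not measured binding, and windows without a match say nothing about sites outside them.

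The genes of serine synthesis were higher with G-TPP at every step. PHGDH, the entry enzyme (probe set 7904433), had an intensity of 8970 with G-TPP, against 4048 with DMSO, 2.22-fold higher. PSAT1, the aminotransferase (probe set 8156043), had 5751 with G-TPP and 2617 with DMSO, 2.20-fold higher. The genes of the first 2 steps of the chain thus differed by nearly the same factor, with log2 differences of 1.15 and 1.14. PSPH, the phosphatase of the last step, had 4120 with G-TPP, against 1498 with DMSO, by its brighter probe set (8137464), which was 2.75-fold higher. Its other probe set (8139737) had 2838 with G-TPP and 1220 with DMSO, 2.33-fold higher, so both PSPH probe sets were past 2-fold. The median log2 difference of the 3 genes was 1.15, against -0.04 over all 11091 genes kept after a brightness filter. In these bulk samples, here as below, fewer cells of a kind and less RNA per cell cannot be told apart.

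The filter asked for an intensity of at least 239.2 in the brighter array, which is the median of that value among all probe sets. Of the 9 members 8 were above it in both arrays, and ALDH1L2 passed it through the G-TPP array alone. Probe sets differ in how strongly they bind, so a higher intensity of 1 gene than of another does not show more transcript.

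The 4 mitochondrial folate members were also higher with G-TPP, but by sizes that differed greatly among them. SHMT2, which brings serine carbon into mitochondrial folate (probe set 7956401), had 5272 with G-TPP, against 3447 with DMSO, 1.53-fold higher. MTHFD2, the dehydrogenase and cyclohydrolase of the next step, had 7845 with G-TPP and 4710 with DMSO by its brighter probe set (8042830), 1.67-fold higher. MTHFD1L, which releases formate (probe set 8122773), had 2025 with G-TPP and 1339 with DMSO, 1.51-fold higher. These enzymes of the main route to formate lay within a narrow band of log2 differences, from 0.60 to 0.74, and none of them reached 2-fold by these probe sets. MTHFD2 stood at the limit: its other probe set (8084064) had 7366 with G-TPP, against 3674 with DMSO, 2.01-fold higher, and the mean log2 difference of both was 0.87.

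ALDH1L2, the branch that oxidises the folate-bound carbon to carbon dioxide, was far apart from the rest. Its probe set (7965979) had 1459 with G-TPP, against 148.8 with DMSO. The DMSO value lay under 172.6, the 95th percentile of 341 olfactory receptor genes in the same array, which are mostly silent outside the nose. Set against that floor, the gene was at least 8.45-fold higher in the G-TPP array, a log2 difference of at least 3.08. Its level in the DMSO array cannot be told from background, so neither an exact fold nor a place among the genes is given.

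The cytosolic folate enzymes did not share this direction. SHMT1 (probe set 8013243), the cytosolic counterpart of SHMT2, had 560.4 with G-TPP and 612.7 with DMSO, 1.09-fold lower. MTHFD1 (probe set 7975045), the cytosolic trifunctional enzyme, had 1770 with G-TPP, against 2249 with DMSO, 1.27-fold lower. Neither came near 2-fold. SHMT1 at -0.13 lay close to the median of all kept genes, and MTHFD1 at -0.35 lay below it, with 88.5% of kept genes having a higher log2 difference.

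**Figure D1:**
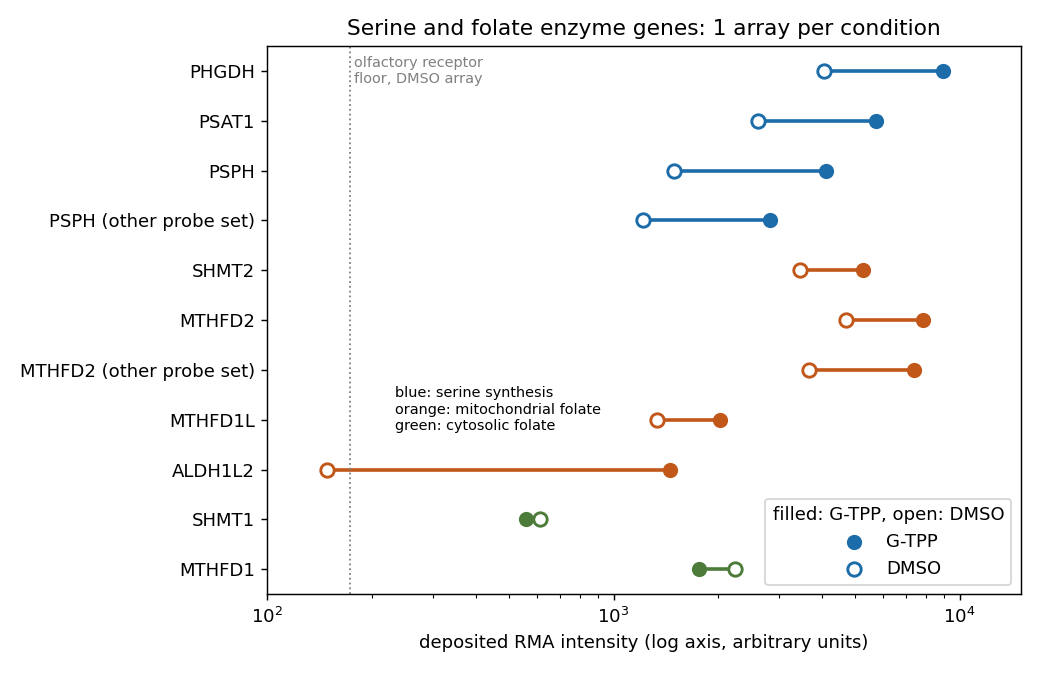
Deposited RMA intensity (log axis) of each single-gene probe set of the 9 members, 1 array per condition, with filled points for G-TPP and open points for DMSO, and no error bars because there are no replicates. Serine synthesis and mitochondrial folate genes have the G-TPP point to the right of the DMSO point, SHMT1 and MTHFD1 have it to the left, and the DMSO point of ALDH1L2 at 148.8 lies under the olfactory receptor floor of 172.6 (dotted).

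Set compartment against compartment, the median log2 difference was 0.67 in the 4 mitochondrial folate enzymes and -0.24 in the 2 cytosolic ones. The medians differed by 0.91, a ratio of 1.88 between the folds. The gap did not rest on ALDH1L2: without it, an alternative chosen after seeing the data, the mitochondrial median was 0.61 and the gap 0.85, and setting ALDH1L2 at its lower bound leaves the median of 4 as it is. When means replaced medians, with ALDH1L2 at its lower bound, the mitochondrial value was at least 1.26 and the gap at least 1.49, and without ALDH1L2 the mean was 0.65 and the gap 0.89.

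Enzyme by enzyme the same order was seen. The log2 difference of SHMT2 was 0.74 above that of SHMT1, the counterpart that runs the same reaction in the cytosol. That of MTHFD1L was 0.94 above that of MTHFD1, its relative in formate handling, and that of MTHFD2 was 1.08 above MTHFD1, which also carries the dehydrogenase and cyclohydrolase activities. Both comparisons with MTHFD1 share its value and are not independent of each other. ALDH1L1, the cytosolic relative of ALDH1L2, had 144.5 with G-TPP and 164.7 with DMSO, under the floors of 173.6 in the G-TPP array and 172.6 in the DMSO array, so no fold was taken for it. MTHFD2L, a mitochondrial relative of MTHFD2 outside the 9 members, had 515.0 with G-TPP, against 376.5 with DMSO, 1.37-fold higher.

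Among all 9 members, 7 had a log2 difference above 0, against 44.0% of all kept genes. PHGDH, PSAT1, PSPH and ALDH1L2, 4 of the 9, were past 2-fold upwards, against 2.80% of kept genes. No member was at least 2-fold lower, where 0.550% of kept genes were. The median over the 9 was 0.74. Given how the members were chosen, and since ALDH1L2 passed the filter through its G-TPP value, these counts describe the set and do not support a claim about it. Counted from the highest log2 difference, PSPH stood at place 122, PHGDH at 230 and PSAT1 at 232 of 11091. MTHFD2, SHMT2 and MTHFD1L followed at 561, 762 and 791, whereas SHMT1 stood at 7009 and MTHFD1 at 9813.

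**Figure D2:**
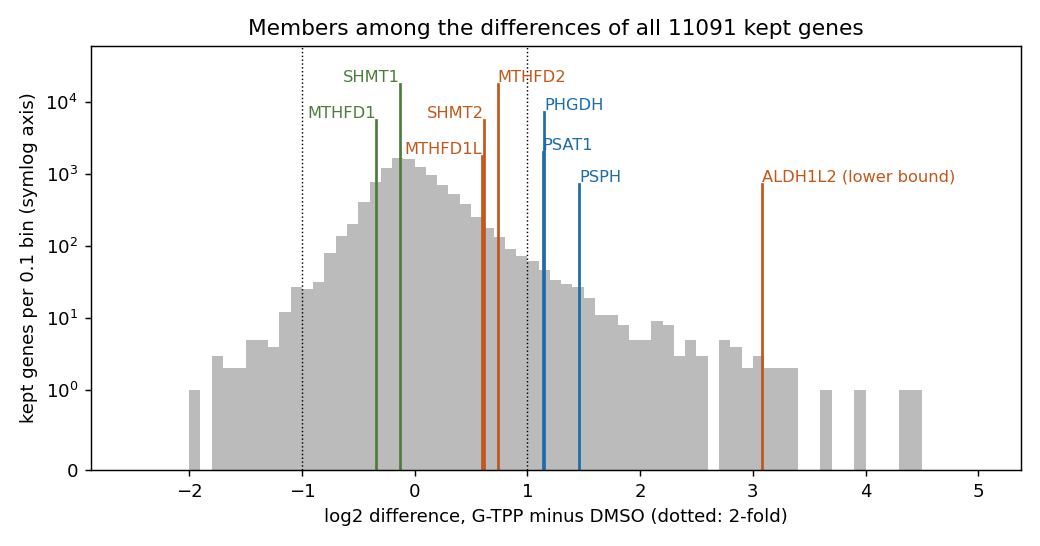
Histogram of the log2 difference, G-TPP minus DMSO, over 11091 kept genes as measured (bins of 0.1, symlog count axis), with a coloured line at each member and dotted lines at 2-fold. The serine synthesis genes lie just past the right dotted line, SHMT2, MTHFD2 and MTHFD1L lie before it, ALDH1L2 is drawn at its lower bound of 3.08, and SHMT1 and MTHFD1 lie left of 0.

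Scales for scatter come from within these arrays. Where a gene had 2 bright probe sets, as 328 did, their disagreement gave a standard deviation of 0.17 per probe set. Array effects that both probe sets share cancel out of that value. The log2 differences of the olfactory receptors had a standard deviation of 0.19, and those of all kept genes, changed ones included, 0.43. The genes of serine synthesis and mitochondrial folate, ALDH1L2 aside, differed by 3.45 to 8.43 times the probe set value, from MTHFD1L to PSPH. These ratios are descriptions and not tests. MTHFD1, at -0.35, was beyond the probe set and olfactory receptor values but within that of all kept genes. SHMT1 was within all of them. Spread between cultures was not measured and enters neither the probe set value nor that of the olfactory receptors. The arrays had median intensities of 215.5 with G-TPP and 224.8 with DMSO.

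**Figure D3:**
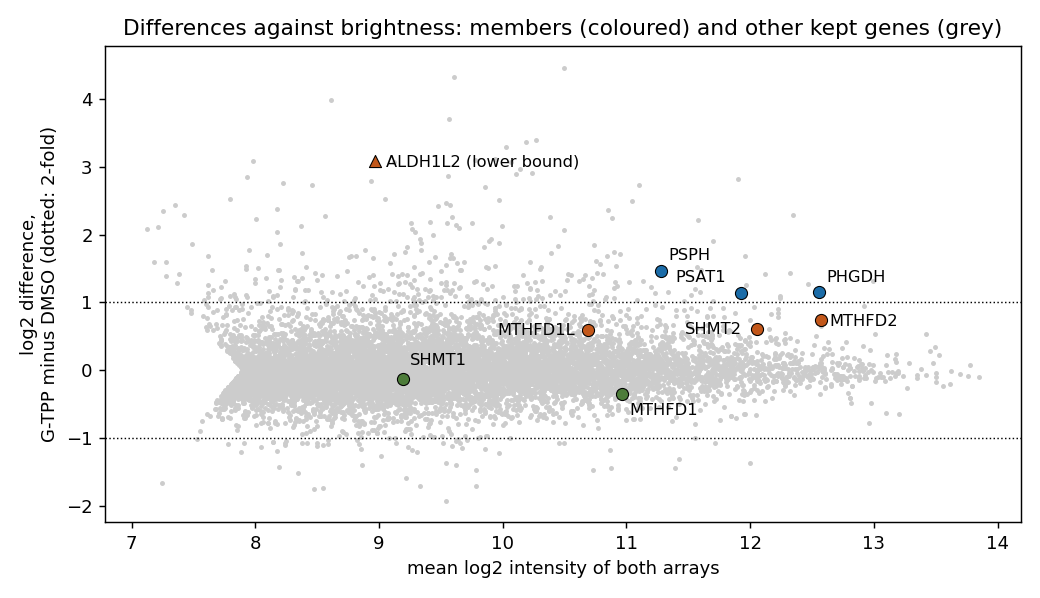
Log2 difference, G-TPP minus DMSO, against the mean log2 intensity of both arrays for each member (coloured: blue serine synthesis, orange mitochondrial folate, green cytosolic folate) and all other kept genes (grey, as measured), with dotted lines at 2-fold. PHGDH, PSAT1 and PSPH lie above most bright genes, ALDH1L2 is a triangle at its lower bound of 3.08, and MTHFD1 at -0.35 lies in the lower part of the grey cloud.

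Probe sets that name a member together with other genes were left out of these values. There were 5, of which 4 name MTHFD1L beside uncharacterised loci, with log2 differences from 0.39 to 0.45, and 1 names PHGDH beside MZT2B, with 2588 at G-TPP and 2653 at DMSO. The last, unlike the PHGDH probe set of its own, was nearly level between the arrays. RefSeq lists 7 pseudogenes of MTHFD2 and 1 of PSPH, and near-identical copies can share probes, so the values of these genes may hold some signal from such copies.

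The steps around the members gave a mixed picture. Folate enzymes outside the 9 members had 4 kept genes, 1 above 0 and 3 below, and 0 at 2-fold in either direction. TYMS, the thymidylate synthase that consumes cytosolic methylene-folate, had 5259 with G-TPP and 5732 with DMSO, 1.09-fold lower. MTFMT, which formylates the mitochondrial initiator tRNA from folate, had a log2 difference of -0.59, the widest in that list. For folate uptake and retention the median was -0.31 in 6 kept genes, none at 2-fold. Below 0 were 5 of the 6, and 6195 of all 11091 kept genes. In that list the reduced folate carrier SLC19A1 had 769.4 with G-TPP, against 1248 with DMSO, 1.62-fold lower, and the proton-coupled carrier SLC46A1 had a log2 difference of -0.68. SLC25A32, the mitochondrial folate carrier, had 2922 with G-TPP and 3934 with DMSO, 1.35-fold lower. GLDC and DLD, the kept genes of the glycine cleavage system, had log2 differences of -0.22 and -0.32.

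Purine synthesis, which takes formate carbon from MTHFD1, had small differences below 0. All 11 kept genes were below 0, as were 6195 of all 11091 kept genes. The list had a median of -0.14, against -0.04 over all kept genes, a range from -0.46 to -0.06 and none at 2-fold. They remained below 0 in 11 of 11 genes after lowess centring, median centring and quantile normalization, with medians of -0.15, -0.09 and -0.18. In 6 of the 11 the difference was smaller than the probe set scatter of 0.17. MTHFD1 at -0.35 was lower than the median of this list.

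In the methionine cycle, which takes methyl groups from folate, MAT2A alone of 9 kept genes reached 2-fold. It was lower, as were 0.550% of all kept genes. MAT2A, the synthetase of S-adenosylmethionine outside the liver, had 2552 with G-TPP, against 6552 with DMSO, 2.57-fold lower. The list's median was -0.03, and 0.01 after median centring. The folate-linked enzymes of the cycle, MTR and MTRR, were at -0.03 and -0.05, nearly level.

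Among carriers of serine and related amino acids 3 of 8 kept genes were past 2-fold, all higher, against 2.80% of all kept genes. All 3 were of the plasma membrane and none was mitochondrial. The list was drawn up with earlier results known, so its count describes it and does not support a claim about it. SLC6A9, the glycine transporter, had 1448 with G-TPP and 318.7 with DMSO, 4.54-fold higher. SLC1A4, an exchanger of serine, alanine and cysteine, had 1648 with G-TPP and 375.5 with DMSO, 4.39-fold higher. SLC38A2, a sodium-coupled importer of small neutral amino acids, was 2.71-fold higher. The sideroflexins SFXN1, SFXN2 and SFXN3, of which SFXN1 carries serine into mitochondria, had log2 differences of -0.25, -0.39 and -0.42.

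In the list of genes for serine use and the step after it, CTH was the 1 of 8 kept that reached 2-fold. It was higher, as were 2.80% of all kept genes, and it passed the brightness filter through the G-TPP array alone. CTH, which makes cysteine from the cystathionine that serine enters, had 3477 with G-TPP, against 173.9 with DMSO, just over the floor, and was 20.0-fold higher. CTH does not itself take serine, and CBS, the gene of that list which does so to make cystathionine, had no single-gene probe set. SARS1, the cytosolic seryl-tRNA synthetase, had 3354 with G-TPP and 1722 with DMSO, 1.95-fold higher. It crossed 2-fold after median centring. SARS2, its mitochondrial counterpart, had 501.2 with G-TPP and 542.9 with DMSO, 1.08-fold lower, so that pair was ordered the other way round from the folate enzymes.

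The lower glycolytic genes, which act before and after 3-phosphoglycerate, were nearly level, with a median of -0.04 over 7 kept genes, from -0.23 to 0.10. After median centring the median was 0.0033. GAPDH and PGK1, which lead up to 3-phosphoglycerate and so lie upstream of PHGDH, had log2 differences of -0.06 and 0.10. Among 12 kept genes of other amino acid synthesis 2 were at least 2-fold higher, against 2.80% of all kept genes, and none lower. ASNS, whose promoter window is printed above, had 2911 with G-TPP, against 610.9 with DMSO, 4.77-fold higher, a larger fold than that of any serine synthesis gene. GOT1, the cytosolic aspartate aminotransferase, was 2.80-fold higher. Of mitochondrial proline synthesis, PYCR1 was 1.46-fold higher, and ALDH18A1, with 1081 with G-TPP and 1569 with DMSO, was 1.45-fold lower.

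**Figure D4:**
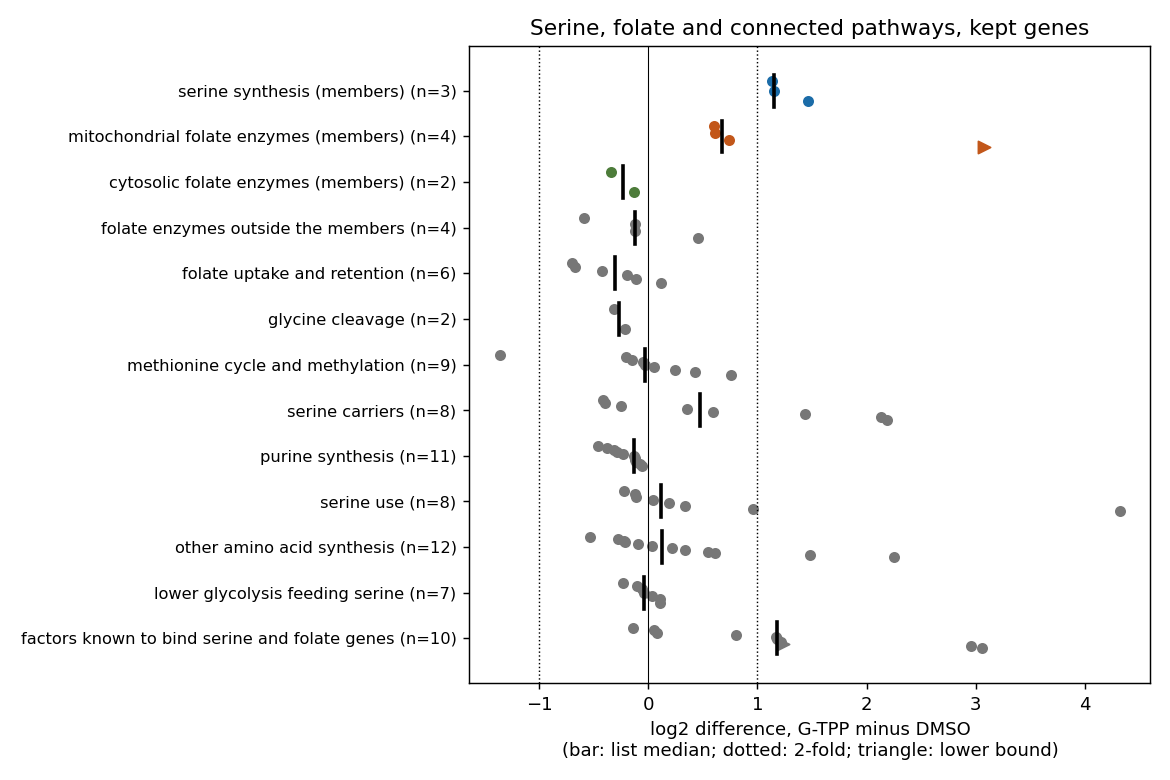
Log2 difference, G-TPP minus DMSO, of every kept gene (points) in the 3 groups of members (coloured) and in 10 connected lists (grey), with a bar at each list's median and dotted lines at 2-fold. The serine synthesis points lie past 1, the purine synthesis points all lie just left of 0, ALDH1L2 and ATF3 are triangles at their lower bounds, and MAT2A is the grey point at -1.36 in the methionine cycle.

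A list of transcription factors known to act on serine and folate genes also held TRIB3, an inhibitor of ATF4 and not itself such a factor. Of its 10 kept genes 6 reached 2-fold, TRIB3 among them, all higher, against 2.80% of all kept genes. The 6 include ATF4 by 1 of its probe sets, and without ATF4 the count was 5 of 9. Both counts include ATF3, which passed the brightness filter through the G-TPP array alone. The list was also drawn up with earlier results known, so these counts describe it and do not support a claim about it. By its brighter probe set (8180337) ATF4 had 2919 with G-TPP and 1255 with DMSO, 2.33-fold higher, but its other probe set had 1327 with G-TPP and 1785 with DMSO, a log2 difference of -0.43. The probe sets of ATF4 disagree in direction, so its transcript level has no settled difference here. CEBPG and CEBPB, which pair with ATF4 on CAREs, were both 2.26-fold higher. DDIT3, which encodes CHOP, and TRIB3, an inhibitor of ATF4, were 8.35-fold and 7.78-fold higher, and ATF3 was at least 2.35-fold higher. NFE2L2, which encodes NRF2, was 1.75-fold higher, and MYC had a log2 difference of -0.15.

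By nearness in both log2 intensities over the 2 arrays, the 3 kept genes closest to MTHFD1, the member with the lowest difference, were ZNF121, PRPS2 and ZYX, at distances of 0.03, 0.04 and 0.04. The closest to ALDH1L2 were NMRAL2P, GDF15 and CMKLR2, but the DMSO value of ALDH1L2 lies under the floor, so these distances and their order have no meaning and are not given. With 2 values per gene such nearness describes intensities in these arrays and no shared level or behaviour.

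The label of the cells was checked against marker genes. Of 11 kept astroglial and glioma markers 8 were below 0, with a median of -0.14, and 2 were at least 2-fold lower. Of all 11091 kept genes 6195 were below 0, and 0.550% were at least 2-fold lower. After lowess centring 7 of the 11 markers were below 0. PDGFRA, a receptor tyrosine kinase, had 490.1 with G-TPP, against 1592 with DMSO, 3.25-fold lower. SOX2, which maintains neural stem cells, had 1629 with G-TPP and 4434 with DMSO, 2.72-fold lower. SOX9 was 1.98-fold lower. Above 0 were SLC1A3, EGFR and FABP7, with log2 differences of 0.64, 0.23 and 0.21. VIM had 6494 with G-TPP and 7146 with DMSO, and CD44 had 7614 with G-TPP and 8013 with DMSO, while GFAP passed the filter narrowly at 231.5 with G-TPP and 245.2 with DMSO, and S100B, OLIG2 and AQP4 were under it. Of 6 immune, 5 endothelial, 5 neuronal and 5 epithelial markers with a probe set, 2, 2, 1 and 3 passed the filter. Their summed intensities were 1114 with G-TPP and 1303 with DMSO for immune, 991.4 with G-TPP and 1041 with DMSO for endothelial, 828.4 with G-TPP and 862.3 with DMSO for neuronal, and 2502 with G-TPP and 2905 with DMSO for epithelial markers. The markers that passed were CD68 and TYROBP, CDH5 and CLDN5, RBFOX3, and KRT8, KRT18 and KRT19. KRT8 was the brightest of them, with 1809 with G-TPP and 2167 with DMSO. PTPRC, PECAM1 and EPCAM had 32.9, 70.7 and 83.4 with G-TPP. With DMSO they had 34.8, 74.6 and 78.3, all within the range of the floor. With markers on both sides of the filter, these lists do not settle the label.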

How the data were processed

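U251 RNA was extracted with Trizol and hybridised as biotinylated cRNA to Affymetrix arrays, per the labels' protocols. The deposited values are linear intensities, 1 for each probe set on each array, from 6.61 to 18995. The authors made them with RMA (Affymetrix Expression Console 1.1.2), per the submitters' processing notes. RMA makes the distributions of arrays alike, so a change in total RNA per cell is not visible. Which arrays it covered, and how its output became linear, is not given in the sources used here.

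Of 33297 probe sets, 19460 had a single symbol in the platform annotation, updated by gene ID through RefSeq. The probe set with the highest mean stood for each of 18417 genes. Log2 intensities, with no pseudocount, were subtracted, G-TPP minus DMSO. The 11091 genes reaching 239.2 in the brighter array were kept and counted at 2-fold. For named genes, values under the 95th percentile of olfactory receptors gave bounds or no fold. Counts and alternatives used them as measured unless stated.

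Groups follow the agent in the labels. With 1 array per group, which limits the precision, no test was run. Members and lists were chosen with earlier results of these data known. All members were named, then from each other list the kept genes at 2-fold (up to 8), set relatives and the 3 genes nearest to each of 2 members; other list genes were named after their values were seen. Protein sequences and some genes of the fixed lists were not analysed here. Steps were tested on simulated data in which every planted change was past 2-fold, so smaller differences were not covered. Alternatives were lowess (span 0.3) and median centring, quantile normalization, log2 of intensity plus 16, means over probe sets or genes, 1.5-fold and 3-fold, no filter and a 75th percentile filter. Python 3.11.15 was used, with matplotlib 3.10.9, numpy 2.4.6, statsmodels 0.14.6 and pandas 2.3.3.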

Additional observations from a re-analysis of the deposited data

How the results depend on the processing

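Under lowess centring, median centring, quantile normalization, log2 of intensity plus 16 and the mean over probe sets, each of the 9 members kept its direction and its side of 2-fold. The log2 difference of PHGDH lay between 1.13 and 1.19, that of MTHFD2 between 0.72 and 0.87 and that of MTHFD1 between -0.37 and -0.30. Thresholds moved the counts by construction. At 1.5-fold 7 members were higher, as were 817 of all kept genes, and 358 genes were lower. At 3-fold 1 member was higher, with 97 genes higher and 7 lower. The 75th percentile filter, which keeps 5341 genes, left 37 genes at least 2-fold lower. Taking the mean over genes gave 1.31 for the mitochondrial folate enzymes and a gap of 1.55 to the cytosolic ones, with the DMSO value of ALDH1L2 taken as measured although it lies under the floor. In alternatives chosen after seeing the data, the mean was at least 1.26 and the gap at least 1.49 with ALDH1L2 at its lower bound, and 0.65 and 0.89 without it. With relatives added (MTHFD2L and TYMS, with no filter), the gap was 0.74. The same with ALDH1L1, planned but resting on values under the floor, gave 0.77. The mitochondrial genes MTFMT, GLDC and DLD, with log2 differences of -0.59, -0.22 and -0.32, were not among the relatives added. Leaving out a replicate was not possible, and no paired analysis was possible because each group has 1 array. Signal limits ALDH1L2 with DMSO and ALDH1L1 in both arrays, which lie under the olfactory receptor floor.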
